A study of Drosophila melanogaster with 23 samples.

Results

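betaTub97EF is a beta-tubulin gene of Drosophila melanogaster on chromosome arm 3R. It was represented on the array by 1 probe, A_09_P009911, of 32162 gene probes, and this probe was taken by its name. The gene itself was chosen with earlier results of these data known. The array files pair the probe with the transcript identifier FBtr0300611. The reference table of RefSeq genes (Release 6 assembly) lists 2 transcripts of the gene. Whether the probe detects both or only 1 of them was not tested, since its sequence was not available. The series followed S2R+ cells, a line derived from fly embryos that resembles hemocytes (blood cells), after a temperature downshift. Every culture was first kept for 36 h at 25 °C. Cells were then collected at once (0 h, 3 arrays), after 12 h more at 25 °C (the group labelled t12_25, 3 arrays), or at 14 °C. The cold groups were collected after 4, 12, 24 and 72 h and held 5, 3, 5 and 4 arrays. Per the series' design text, t12_25 cultures had a cell density close to that of cultures kept for 72 h at 14 °C, and experiments were repeated until each group had at least 3 arrays of sufficient technical quality. The 0 h and t12_25 arrays together formed the 25 °C baseline of 6 arrays.

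Microtubules are hollow polymers of heterodimers, each built from an alpha- and a beta-tubulin, and they depolymerise readily in the cold. A fly genome holds several genes for each subunit. betaTub56D is the beta-tubulin of most cells, betaTub60D appears in differentiating tissues, betaTub85D belongs to the testis, and betaTub97EF is a further, more divergent isotype. Gamma-tubulins nucleate microtubules and are not part of the polymer itself.

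All 23 arrays shared the same design, with 46.8 to 58.1% of probes well above background and no saturated spot. The scanning software marked 6 arrays, all from 14 °C cultures, as outside its quality range. The hemocyte transcription factor gene srp and its partner ush were well above background on 23 of 23 arrays. Of the markers of other cell types that had a named probe, both twi probes and both betaTub85D probes were well above background on 0 of 23 arrays, the vas probes on 0 and 2, and the alphaTub67C probe on 14. The other 8 hemocyte markers and the markers elav, repo, Mhc and bam had no probe named by the tables used here. The betaTub97EF probe was spotted 2 times per array, and its 46 spots were all well above background and free of outlier flags. The second spot was brighter than the first on 23 of 23 arrays, by 0.16 to 0.39 log2 units, and either spot alone gave a 72 h change of 1.75.

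The level of betaTub97EF rose at 14 °C and was higher at each later time point. Values are normalized log2 intensities, so that a difference of 1 is a factor of 2. On the 0 h arrays the probe read 12.38, 12.36 and 12.34. The 0 h arrays thus lay within a factor of 1.03 of each other. On the t12_25 arrays it read 11.85, 11.59 and 12.40, with the third array above every 0 h array and the others below. The 4 h arrays read 12.58, 12.54, 12.66, 12.70 and 12.65, all above the 6 arrays of the 25 °C baseline. After 12 h the values were 13.04, 13.13 and 13.25, and after 24 h they were 13.44, 13.39, 13.43, 13.65 and 13.46. After 72 h they were 13.88, 13.89, 13.89 and 13.95. No array of one 14 °C group overlapped an array of another, and every group at 14 °C lay above the baseline. Of all probes, 2.73% were separated upward from the baseline in this way after 4 h, 8.64% after 12 h, 4.76% after 24 h and 5.49% after 72 h. An upward separation from the preceding cold group was found for 6.59% of all probes after 12 h, 2.52% after 24 h and 2.61% after 72 h.

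**Figure D1:**
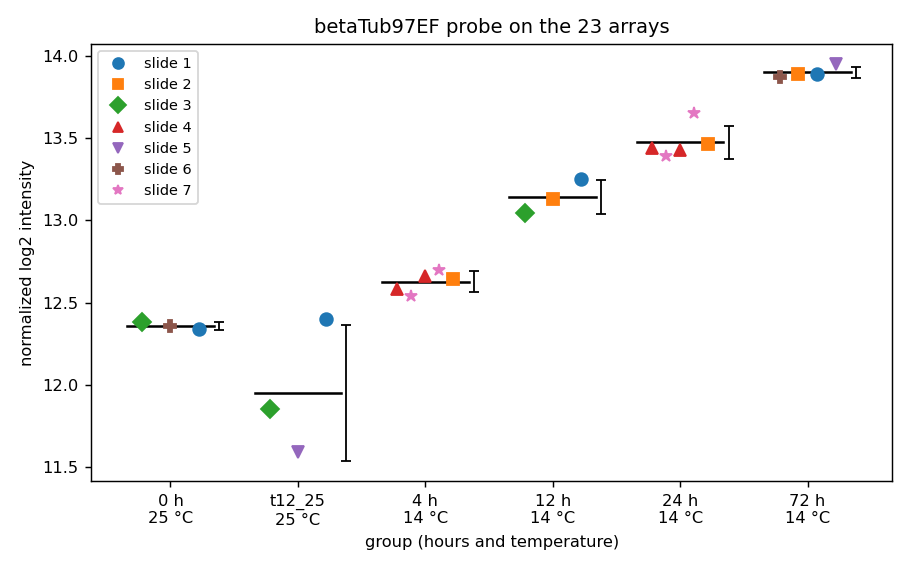
Normalized log2 intensity of the betaTub97EF probe (vertical axis) on each of the 23 arrays, by group (horizontal axis). Each point is 1 array with its slide given by colour and shape, black lines are group means and bars are 1 SD. The groups at 14 °C climb from between 12.54 and 12.70 at 4 h to between 13.88 and 13.95 at 72 h without overlap, while t12_25 spreads from 11.59 to 12.40.

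The order of the group means was t12_25, 0 h, 4 h, 12 h, 24 h and 72 h, at 11.95 ± 0.42 (SD, n = 3), 12.36 ± 0.02 (n = 3), 12.63 ± 0.06 (n = 5), 13.14 ± 0.10 (n = 3), 13.47 ± 0.10 (n = 5) and 13.90 ± 0.03 (n = 4). Spread was thus widest at t12_25. The limma fit used 1 estimate of the spread shared by all groups, so its SEs and intervals do not follow the spread of single groups. Against the pooled baseline, the limma fit over all arrays and probes gave a log2 change of 0.47 ± 0.11 (SE) at 4 h, a factor of 1.39 (95% confidence interval 1.18 to 1.63, adjusted p = 0.0119). The change was 0.99 ± 0.13 at 12 h (1.98-fold, interval 1.64 to 2.40, adjusted p = 2.06e-05) and 1.32 ± 0.11 at 24 h (2.50-fold, interval 2.12 to 2.94, adjusted p = 2.51e-08). At 72 h it reached 1.75 ± 0.12 (3.36-fold, interval 2.82 to 4.00, adjusted p = 1.03e-09). A probe is called here where the adjusted p is under 0.05 and the change at least 2-fold. betaTub97EF was called higher at 24 h and 72 h, together with 0.886% and 1.15% of all probes. It passed the test without reaching 2-fold at 4 h and 12 h, where 3.21% and 6.43% of all probes passed with a higher level. The moderated F test over the time course gave F = 67.2 (adjusted p = 3.45e-09), and 3.04% of all probes were called by it. Of the arrays outside the quality range, 3 were among the 4 arrays at 72 h. Without the 6 arrays the 72 h change was 1.80 (adjusted p = 0.000227), with the lone remaining 72 h array assumed to vary like the other groups. In a bulk culture, a higher level per cell and a larger share of cells with the transcript cannot be told apart.

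The 4 comparisons share the baseline arrays, so they are not independent of each other. Ranked by log2 change among all 32162 probes, betaTub97EF moved up from position 683 after 4 h to 311 after 12 h, 114 after 24 h and 66 after 72 h. Of the change seen at 72 h, 27.0 ± 5.9% (SE) had been reached by 4 h, 56.6 ± 7.1% by 12 h and 75.6 ± 6.4% by 24 h. The mean slope was 0.118 ± 0.028 log2 units per hour (SE) over the first 4 h, 0.064 ± 0.017 from 4 h to 12 h, 0.028 ± 0.011 from 12 h to 24 h and 0.0089 ± 0.0026 from 24 h to 72 h. These shares and slopes start from the pooled baseline (mean 12.15), which includes the lower t12_25 arrays. The 0 h arrays alone had a mean of 12.36, closer to the 12.63 at 4 h. From 0 h alone the first slope and the shares would be smaller, so the values do not show that the rise was fastest in the first 4 h. Neighbouring slopes were not tested against each other.

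Successive times were also compared directly. Between 4 h and 12 h the increase in betaTub97EF was 0.52 ± 0.11 (SE, adjusted p = 0.0219), a step for which 0.743% of all probes passed with a higher level. From 12 h to 24 h the difference was 0.33 ± 0.11, and it did not pass (adjusted p = 0.336, 95% confidence interval 0.10 to 0.57), although no array overlapped. In that step 0.109% of all probes passed with a higher level. Between 24 h and 72 h the increase was 0.43 ± 0.10 (adjusted p = 0.0251), where 1.71% passed. With slide as a block, the steps from 4 h to 12 h and from 24 h to 72 h were 0.48 and 0.43 and did not pass (adjusted p = 0.194 and 0.254). Over wider spans the increase was 0.85 ± 0.10 between 4 h and 24 h (adjusted p = 9.07e-06) and 1.27 ± 0.10 between 4 h and 72 h (adjusted p = 4.75e-08), where 3.01% and 4.59% of all probes passed with a higher level.

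The t12_25 group allows a comparison at similar density with 72 h, and at the same elapsed time with 12 h. Against t12_25, betaTub97EF was 1.95 ± 0.12 higher at 72 h (3.87-fold, adjusted p = 5.73e-10) and 1.19 ± 0.13 higher at 12 h (2.29-fold, adjusted p = 3.03e-06). The SEs and intervals of comparisons with t12_25 rest on the shared spread and do not reflect the wider spread of that group (SD 0.42). Within slides 1 and 5, the difference of 72 h from t12_25 was 1.49 and 2.36. The shares of all probes called higher in these comparisons were 1.25% and 0.992%. With 0 h alone as the baseline the changes were smaller, at 0.27 ± 0.06 for 4 h (adjusted p = 0.0136) and 1.54 ± 0.06 for 72 h (adjusted p = 3.80e-11). The t12_25 level itself was -0.41 ± 0.13 relative to 0 h, and this difference did not pass (adjusted p = 1.00, 95% confidence interval -0.67 to -0.15). No probe passed in that comparison with limma, and 1303 had an unadjusted p under 0.05. With single arrays left out, the difference ranged from -0.64 to -0.23. It passed only without t12_25 replicate 3 (-0.64, adjusted p = 0.00386). That array lay above the 0 h arrays and so ran against the difference.

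The arrays came from 7 slides read on 2 scan dates, and every slide held more than 1 group. Within slides, later cold groups lay above earlier ones, and 12 h and 72 h arrays lay above baseline arrays. No slide held 4 h or 24 h arrays together with baseline arrays. The 4 h and 24 h changes from the baseline could therefore not be measured within a slide. With slide as a block, they were linked to the baseline only through slides with 12 h or 72 h arrays. Slide 1 held 0 h, t12_25, 12 h and 72 h arrays, which read 12.34, 12.40, 13.25 and 13.89. Slide 2 held 1 array each of 4 h, 12 h, 24 h and 72 h, which read 12.65, 13.13, 13.46 and 13.89. The values on both slides thus climbed with time at 14 °C. On the 3 slides that held 72 h and baseline arrays together, the 72 h level was higher by 1.52, 1.52 and 2.36, the last against t12_25 replicate 2 alone. On slides 2, 4 and 7 the 24 h level exceeded the 4 h level by 0.82, 0.81 and 0.90. The t12_25 difference from 0 h was -0.53 on slide 3 and 0.07 on slide 1. Within scan dates 1 and 2, the 72 h change was 1.87 and 1.52, and the 4 h change was 0.58 and 0.28. With slide as a block in the fit, the 72 h change was 1.76, whereas the 4 h change of 0.48 ± 0.21 no longer passed (adjusted p = 0.353).

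**Figure D2:**
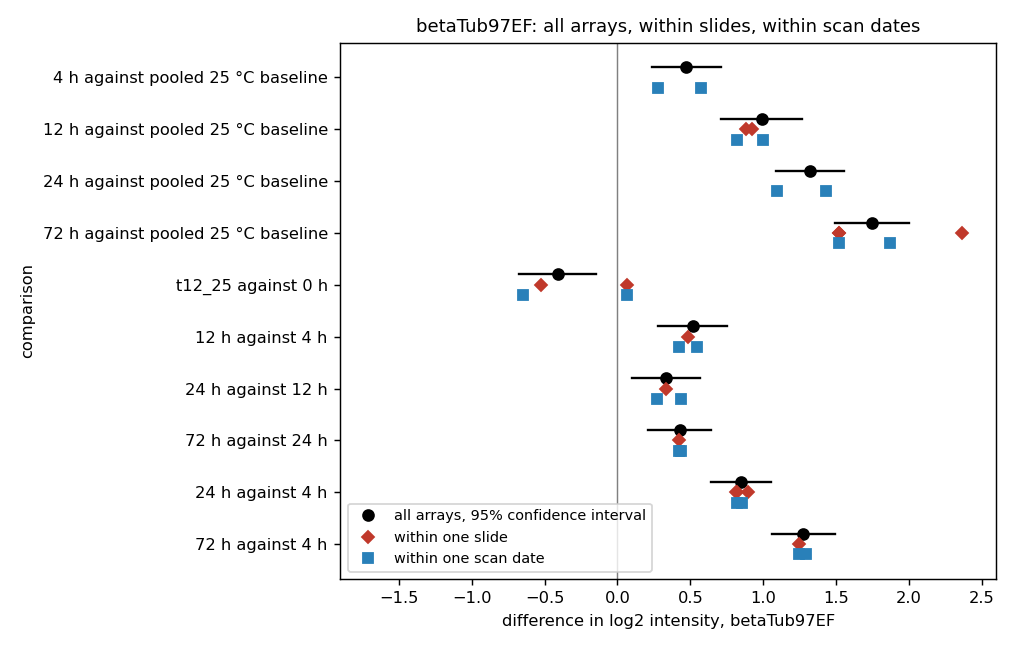
Difference in log2 intensity of betaTub97EF (horizontal axis) for 10 comparisons (vertical axis). Black circles with lines are estimates over all arrays with 95% confidence intervals, red diamonds are differences within 1 slide and blue squares differences within 1 scan date. Every difference between cold groups, or between a cold group and the baseline, is above 0, while t12_25 against 0 h is -0.53 on one slide and 0.07 on another.

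Among the other tubulin genes, 14 probes of 8 genes could be named, and 10 of these probes were well above background on all arrays. None of the 14 was called by the F test over the time course, and 0 reached a call at any single time point. At 72 h 5 of them passed the test with a higher level and 0 with a lower one, beside 7.97% and 9.25% of all probes. Their log2 changes at 72 h ranged from -0.42 to 0.71, with a median of 0.01, against 1.75 for betaTub97EF and a median of 0.00 over all probes.

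Of the other beta-tubulins, betaTub60D rose in the cold. Its probe A_09_P009901 ranged from 13.87 to 14.31 (median 14.02) on the 6 baseline arrays and from 14.43 to 14.70 on the 4 arrays at 72 h, without overlap. The log2 change was 0.50 ± 0.09 (SE) at 72 h (adjusted p = 3.51e-04) and 0.41 ± 0.09 at 24 h (adjusted p = 0.00150). Of all probes, 7.60% passed with a higher level at 24 h. At 4 h and 12 h the change of betaTub60D was 0.17 and 0.28 and did not pass. The 72 h change did not pass when arrays were scaled by their median, at 0.11 (adjusted p = 0.653), or without the 6 arrays outside the quality range, at 0.39 (adjusted p = 0.259). For betaTub56D, the major isotype, neither probe passed. A_09_P009896 and A_09_P165395 gave -0.31 ± 0.13 (adjusted p = 0.111) and -0.21 ± 0.18 (adjusted p = 0.527) at 72 h. Without 72 h replicate 1, the lowest 72 h array on both probes, these values were -0.14 and -0.043. The first probe passed without t12_25 replicate 2 (-0.37, adjusted p = 0.0405) and once scan date was blocked (-0.34, adjusted p = 0.0426). On the first of them, the 72 h arrays read 17.05 to 17.77 and the baseline arrays 17.54 to 18.24, so the groups overlapped. At such high intensities quantile normalization gave several arrays an identical value. An example is 17.79 on 0 h replicate 2, t12_25 replicate 1 and 12 h replicate 1. How far this restricted the changes of betaTub56D was not tested. Both betaTub85D probes remained at background level on every array.

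Of the alpha-tubulins, which pair with beta-tubulin in the dimer, alphaTub84D rose and alphaTub84B gave values close to 0. On probe A_09_P009886 alphaTub84D ranged from 13.88 to 14.24 at baseline and from 14.58 to 14.90 at 72 h, a log2 change of 0.71 ± 0.07 (adjusted p = 2.35e-07). The probes A_09_P197435 and A_09_P178050 gave 0.55 ± 0.08 (adjusted p = 2.32e-05) and 0.64 ± 0.21 (adjusted p = 0.0419). The 3 alphaTub84D probes thus changed in the same direction, although the third did not pass in 14 of 46 alternatives, the replicate block among them (0.66, adjusted p = 0.0623). Under median scaling none of them passed, at 0.32, 0.27 and 0.26. The 3 alphaTub84B probes gave 0.00, 0.04 and 0.03 at 72 h (adjusted p between 0.954 and 0.997), with 95% confidence intervals as wide as -0.53 to 0.61. Under median scaling they turned to -0.31, -0.39 and -0.34, without passing. alphaTub84B and alphaTub84D are nearly identical in sequence, so signal shared between their probes was not tested and their separate values are uncertain. alphaTub67C, the maternal alpha-tubulin, passed at 72 h with 0.24 ± 0.06 (adjusted p = 0.00486), but none of the 6 baseline arrays (0) showed its probe well above background. alphaTub85E was well above background on 5 of 23 arrays, with -0.02 ± 0.07 at 72 h (adjusted p = 0.882). The gamma-tubulin gammaTub23C gave -0.42 ± 0.28 at 72 h, and did not pass (adjusted p = 0.390). It passed with slide as a block (-0.42, adjusted p = 0.00776), under median scaling (-0.77, adjusted p = 0.0481) and with the authors' deposited values (-0.41, adjusted p = 0.00221). With single arrays left out its change ranged from -0.60 to -0.25.

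**Figure D3:**
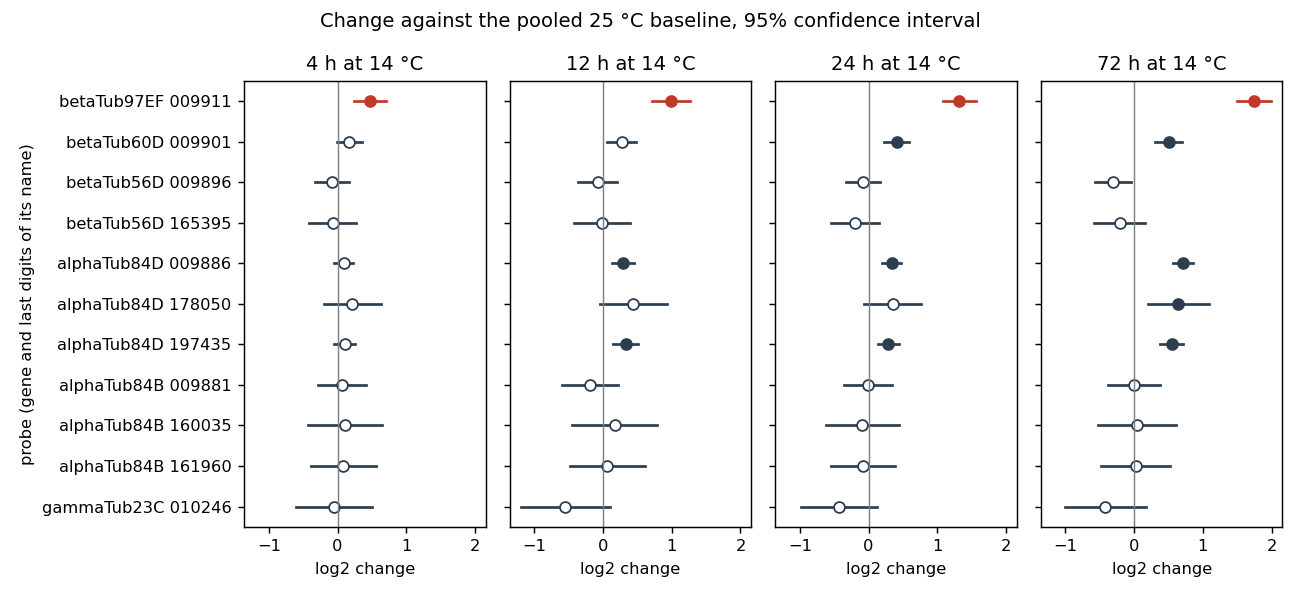
Log2 change against the pooled 25 °C baseline (horizontal axis, 95% confidence interval) at 4, 12, 24 and 72 h for betaTub97EF (red) and the 10 other tubulin probes well above background on all arrays (vertical axis, named by gene and the last digits of the probe name). Filled circles passed at an adjusted p under 0.05. betaTub97EF moves from 0.47 to 1.75, whereas the other probes stay between -0.55 and 0.71.

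The difference between betaTub97EF and another tubulin was then measured within each array, which removes any factor that scales both probes alike. The change of betaTub97EF at 72 h exceeded that of every one of the 10 other probes, by 1.04 (alphaTub84D, A_09_P009886) to 2.17 (gammaTub23C). For betaTub60D the excess was 1.24. For the betaTub56D probes it was 2.05 and 1.95, with the limit from quantile normalization given above. The 4 arrays at 72 h lay above all 6 baseline arrays in each of the 10 comparisons. Two-sided exact permutation tests (4 against 6 arrays, 210 splits) gave p = 0.00476 for 7 probes, the smallest p that this design allows, and p = 0.00952 for the others. Adjusted over the 10 comparisons, which all share the betaTub97EF values, these were 0.00680 and 0.00952. Levels of different probes cannot be compared, so these values say nothing about which tubulin was most abundant.

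**Figure D4:**
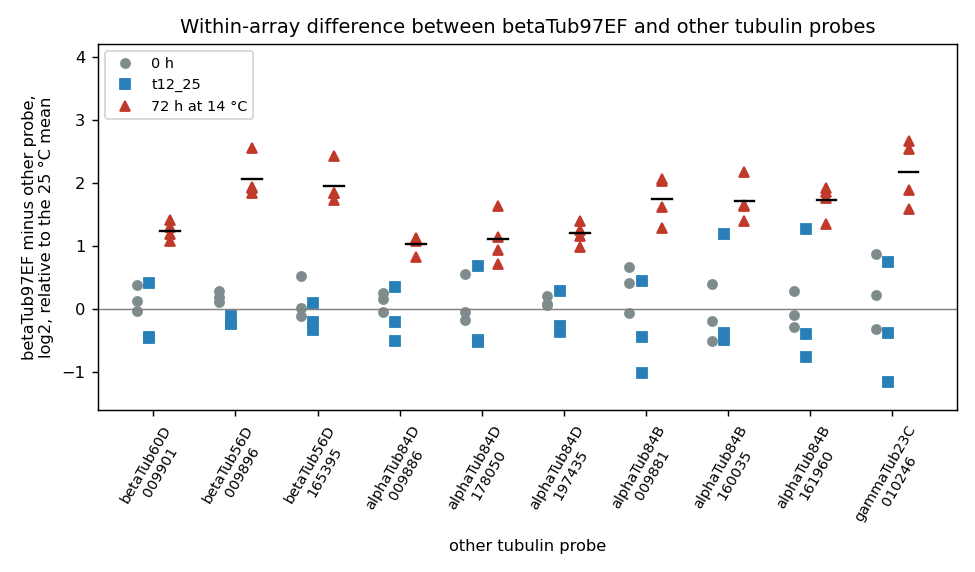
Log2 intensity of betaTub97EF minus that of another tubulin probe on the same array (vertical axis), relative to the mean of the 6 arrays at 25 °C, for the 10 other probes (horizontal axis). Circles are 0 h, squares t12_25 and triangles 72 h arrays, and black lines are 72 h means. The 72 h means lie between 1.04 and 2.17, and in each column the 4 triangles lie above all circles and squares.

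Genes that act on tubulin or microtubules were described by lists, of which only some genes had a named probe. Of the chaperonin and tubulin-folding list, 1 of 19 genes was measured, the chaperonin subunit CCT1. Its probes gave 0.11 and 0.10 at 72 h and did not pass. Of 20 genes for microtubule binding and dynamics, 4 were measured. One of these, the spindle protein gene mars, fell by 0.50 at 72 h (adjusted p = 0.00191), and the others did not pass. Of 16 nucleation genes, gammaTub23C and dgt5 were measured, and neither passed. Of 32 motor genes, 12 were measured by 17 probes. At 72 h 1 of these probes passed with a higher level and 7 with a lower one, beside 7.97% and 9.25% of all probes, and 0 were called. Their median log2 change was -0.34, beside 0.00 for all probes. The motor probe that rose was that of Klp98A, a kinesin of vesicle transport, by 0.66 (adjusted p = 2.62e-04). The kinesin neb (Klp38B) fell by 0.59, 0.67 and 0.86 on its 3 probes, the spindle motor Klp61F by 0.52 and 0.65 on 2 probes, Klp67A by 0.83 and pav, a kinesin of cytokinesis, by 0.51. cmet, a kinesin of the centromere, gave -0.15 and did not pass (adjusted p = 0.766). Apart from gammaTub23C, the genes of these lists were named after their values were seen, since none of their probes was called at 72 h. No actin gene had a named probe.

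The named genes with a pattern most like that of betaTub97EF were taken by Pearson's r over the 23 arrays, among 2371 other named probes with signal well above background on at least 3 arrays and no missing value. The arrays share groups, slides and normalization, so r is a description only. The highest values were those of Sting, a sensor of cyclic dinucleotides in antiviral defence (r = 0.93), Fur1, a furin-type protease (0.93), Jheh2, an epoxide hydrolase of juvenile hormone metabolism (0.93), and GstE2, a glutathione S-transferase (0.92). They were followed by rl, the ERK kinase (0.91), CG5321 (0.91), the PDZ-LIM protein Zasp52 (0.90), CG34328 (0.90), CG33523 (0.90) and the aquaporin Prip (0.90). Over the 6 group means, r of these probes was between 0.91 and 0.98. Their log2 changes at 72 h ranged from 0.60 (CG33523) to 2.76 (Prip), and at 4 h from -0.01 (CG34328) to 0.72 (rl), beside 0.47 for betaTub97EF. The same genes did not lead under every measure: 2 of the 10 remained among the first 10 when r was taken over group means, 2 after slide means were removed, and 5 with the authors' deposited values. Across all 18820 other probes compared, named or not, 102 had r over 0.9 and 126 had r under -0.9. Sting stood at position 21 among them, so probes without a name had a higher r than any named gene. Of the tubulins, the alphaTub84D probe A_09_P009886 had the highest r (0.88), ahead of A_09_P197435 (0.86) and betaTub60D (0.77). Over the 6 group means r of betaTub60D was 0.995, while that of gammaTub23C was -0.86.

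**Figure D5:**
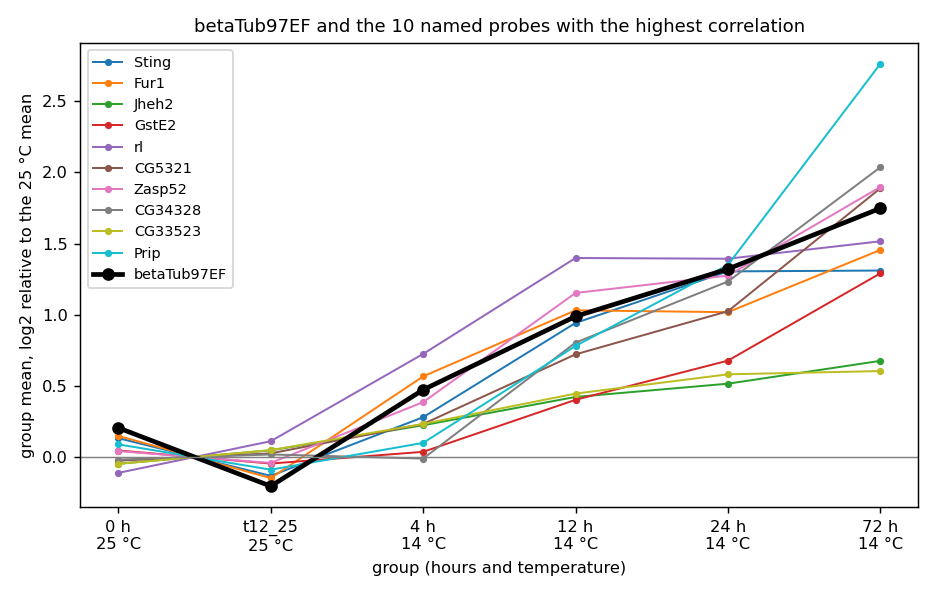
Group means of log2 intensity relative to the mean of the 6 arrays at 25 °C (vertical axis) in the 6 groups (horizontal axis), for betaTub97EF (thick black line) and the 10 named probes with the highest Pearson's r with it over 23 arrays (thin lines). All lines are highest at 72 h, where they end between 0.60 (CG33523) and 2.76 (Prip), with betaTub97EF at 1.75.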

How the data were processed

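Per the file headers, the authors hybridised each RNA sample to 1 single-colour Agilent array and quantified it with Feature Extraction 10.7.3.1. Spot intensities were deposited without between-array normalization. The array designs are annotated on an older genome build (dm3), so no genome coordinates are given. The study's methods describe the authors' deposited log2 values as the output of normexp, quantile normalization and a surrogate variable adjustment, and these values served as an alternative only. Here, local background medians above 3 times the array's median (23 gene spots on 7 arrays) were capped at that median. Median signals were then background-corrected (normexp, offset 50) and quantile-normalized over gene spots, and log2 values of unflagged spots were combined per probe by their median. Without the cap, the correction broke down on 4 arrays. Groups came from the sample titles. The study describes the arrays of a group as biological replicates of this 1 cell line. Same-numbered arrays deviated together, with every correlation over 0.1, in 7 of 15 pairs of groups, among them t12_25 with 0 h, 24 h with 4 h and 72 h with 12 h, but not in 72 h with 0 h or t12_25.

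limma 3.58.1 (R 4.3.3) was fitted over all 23 arrays and 32162 probes, with 5 groups (pooled baseline) or 6, and p-values were adjusted by Benjamini-Hochberg over all probes. No filter was applied. Data were simulated for the 72 h comparison on all 32162 probes, with independent noise on each array and 200 probes changed. In them, 89.6% of probes changed by 1 log2 unit and 71.2% of those changed by 0.5 passed. The real arrays share slides, and 5539 probes passed at 72 h, so these shares are not the power of this experiment. Precision is limited by the number of arrays. Of the probes, 3656 could be named, 2657 from the annotation columns of the study's tables, 635 through a shared transcript and 364 through a RefSeq accession. The rule was to name betaTub97EF, every other tubulin probe, called probes of each list at 72 h, and the 10 named probes most correlated with betaTub97EF. No list probe was called at 72 h, so the list genes given here, apart from gammaTub23C, were named outside this rule. The gene, the lists and the rules were chosen with earlier results of these data known.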

Additional observations from a re-analysis of the deposited data

Results flagged for a closer look

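In 3 groups of 4 or 5 arrays and 11 tubulin probes, 33 sets of values were examined for an array that stood apart from the rest of its group, and 4 were found. Chance gives such an array in about 5% of sets. For betaTub97EF, 24 h replicate 4 read 13.65 and the other 24 h arrays 13.39 to 13.46, a gap of 0.717 of the whole range. For alphaTub84D (A_09_P197435), 24 h replicate 3 stood apart with a gap of 0.775 of the range. Both betaTub56D probes were lowest on 72 h replicate 1, with gaps of 0.894 and 0.833 of the range. This array was outside the quality range. Without it, the 72 h changes of these probes were -0.14 and -0.043.

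The effect of the cold on betaTub97EF differed between time points in the values reported. The difference was 0.52 between 12 h and 4 h, 0.43 between 72 h and 24 h, 0.85 between 24 h and 4 h and 1.27 between 72 h and 4 h. The first of these did not pass in 11 of 44 alternatives and the second in 14 of 44. The differences of 24 h and 72 h from 4 h passed in all 44. Between 72 h and 4 h the effect also differed for alphaTub84D, by 0.62 on A_09_P009886 and 0.44 on A_09_P197435, and for betaTub60D by 0.33.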

How the results depend on the processing

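For betaTub97EF, the changes at 24 h and 72 h, the time course F test and the differences of 12 h and 72 h from t12_25 and of 24 h and 72 h from 4 h passed under every alternative fitted. The 72 h change ranged from 1.31 (median scaling) to 1.95 (t12_25 alone as baseline). Other comparisons came to lie on the other side of the threshold as follows, and the cause was not tested. The 4 h change did not pass with processed signals scaled by the 75th percentile (0.44), median scaling (0.23), slide as a block (0.48), only the groups compared (0.47), the arrays outside the quality range left out (0.47), or the 4 arrays with disturbed background correction left out with the cap (0.47) or without it (0.46). The 12 h change did not pass under median scaling (0.72) or without the arrays outside the quality range (0.89). The step from 4 h to 12 h did not pass with an offset of 0 (0.52), the 75th percentile (0.64), median scaling (0.49), slide as a block (0.48), the quality filter on arrays (0.42) or without the 4 arrays (0.52 with the cap, 0.52 without). The step from 24 h to 72 h did not pass under the same settings, at 0.43, 0.41, 0.32, 0.43, 0.48, 0.42 and 0.42. The step from 12 h to 24 h passed with the authors' deposited values (0.33). With single arrays left out, the step from 4 h to 12 h ranged from 0.46 to 0.56 and failed 4 times (4 h replicate 2 and each 12 h array), and the step from 24 h to 72 h ranged from 0.40 to 0.47 and failed 7 times (24 h replicates 1, 2 and 3 and each 72 h array). The step from 12 h to 24 h ranged from 0.28 to 0.39 and passed without t12_25 replicate 3 (adjusted p = 0.0297). The difference of t12_25 from 0 h ranged from -0.64 to -0.23.

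The alphaTub84B probes, near 0 at 72 h, changed sign without passing. A_09_P009881 gave -0.31 under median scaling, -0.023 with slide as a block, -0.041 with the replicate block, -0.095 with array weights, -0.13 against t12_25 alone, -0.071 without the 4 arrays (also -0.071 without the cap) and -0.14 to 0.11 with single arrays left out. A_09_P160035 gave -0.047 with the 75th percentile, -0.39 under median scaling, -0.013 with array weights, -0.27 against 0 h alone and -0.15 to 0.20 with single arrays left out. A_09_P161960 gave -0.34, -0.070 and -0.21 under the latter 3 settings, and -0.18 to 0.12 with single arrays left out. The 10 within-array differences passed in all 110 recomputations, at 0.93 to 2.36. The median change of all probes at 72 h was 0.59 with the 75th percentile and -0.11 under median scaling, against 0.00 in the values reported. Probes called numbered 121, 412, 526 and 681 at 4, 12, 24 and 72 h. They numbered 810, 4245, 1873 and 6624 with the 75th percentile, 297, 866, 973 and 1279 with an offset of 0, 69 and 269 at 4 and 12 h without the cap, 64 and 269 without the cap and the 4 arrays, and 1165 at 72 h under median scaling. Over all groups, 33 of 49 same-numbered pairs correlated above 0.1, and an array correlated best with its own number in 46 of 98 checks. With the replicate block, the betaTub97EF change at 72 h was 1.71 and each betaTub97EF comparison stayed on its side of the threshold, while 129, 436, 547 and 699 probes were called. The mean spot signal was not run, since the files used here hold median signals. The alternatives that left out the 4 arrays or used 1 spot were chosen after seeing the data. Groups held 3 to 5 arrays, and differences such as that from 12 h to 24 h had wide intervals. These intervals rest on the spread shared by all groups. Without t12_25 replicate 3, the SE of the step from 12 h to 24 h was 0.066 instead of 0.11.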
